A study of Mus musculus with 40 samples.

Results

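Replication-dependent histone genes were taken as every protein-coding gene whose GENCODE M21 symbol begins with Hist1h, Hist2h, Hist3h or Hist4h, which gave 67 of the 55536 genes in the count tables. They comprise 6 H1, 18 H2A, 18 H2B, 12 H3 and 13 H4 genes (H4 is also the name of a clone, written clone H4 or listed with the other clones). The Hist1 cluster on chromosome 13 holds 54 of them, the Hist2 cluster on chromosome 3 holds 10, the Hist3 cluster on chromosome 11 holds 2 and Hist4 on chromosome 6 holds 1. A further 3 genes with such symbols are not protein coding and were left out.

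The RNA came from mouse embryonic stem cells (mESCs), of which 2 biological replicates were wild-type (WT), clones D1, G2 and H5 lacked *Ccnc* (*Ccnc* KO) and clones B9, H4 and C8 lacked *Cdk8* (*Cdk8* KO). Cells were given either DMSO or 900 nM of the ATR inhibitor AZD6738 (ATRi) for 4 h, and poly(A) RNA was then sequenced. *Ccnc* encodes Cyclin C and *Cdk8* its partner kinase, and both belong to the kinase module of the Mediator complex, which links transcription factors to RNA polymerase II. All 40 lane samples together make 20 libraries in 2 multiplexes, one for each knockout, and the 4 WT libraries were sequenced in both. WT and knockout cells are *Atm*-proficient and express Cas9, and each knockout is represented by 3 clones grown from edited single cells, so the effect of the lost gene and what a clone otherwise acquired cannot be told apart. The study left out WT replicate 2 under ATRi, which stood apart from the other libraries. It is not in the tests, which hold 1 WT library under ATRi in each multiplex, and its values are given below.

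Library totals lay between 30899823 and 67274049 reads, of which 1556 to 6760 fell on histone genes (50.4 to 181 CPM, that is, counts scaled to the raw library total). All other CPM values use library totals adjusted by TMM, a scaling between libraries. *Ccnc* itself measured 4.24 to 7.40 CPM in *Ccnc* KO libraries and 39.6 to 45.1 CPM in the WT libraries beside them. *Cdk8* was at 52.3 to 64.6 CPM in *Cdk8* KO libraries, below the 71.2 to 78.6 CPM of the WT libraries tested, while WT replicate 2 under ATRi, at 57.7 CPM, lay within the knockout range. Stem cell markers (8 genes) summed to 4190 to 4682 CPM in WT, 3760 to 4322 in *Ccnc* KO and 3203 to 4169 in *Cdk8* KO. Of these, 4 were lower in *Ccnc* KO (5.28% of all genes tested were) and 2 in *Cdk8* KO (2.03%), where 0 were with the clone as a random effect (0.668%). Fibroblast markers (7 genes) summed to 19.7 and 23.15 CPM in clone H4, against 6.48 to 11.1 in the other clones and 3.89 to 5.56 in WT. Of the sums in clone H4, *Col1a1* made 14.26 and 16.82 CPM and *Col1a2* 2.40 and 3.31 CPM. *Thy1* went the other way, with 1.982 and 1.985 CPM in clone H4 and 2.94 to 5.83 in the other clones. The summed CPM of 9 primitive endoderm markers moved with genotype, from 126.8 to 146.8 in WT to 201 to 332.5 in *Ccnc* KO and 360.2 to 564.1 in *Cdk8* KO. The part of these lists in the genotype differences of histone genes was not tested.

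Replication-dependent histones package newly made DNA, and their genes are transcribed mainly in S phase. Their mRNAs as a rule end at a conserved stem-loop bound by SLBP and are not polyadenylated, in contrast to nearly all other mRNAs, so a poly(A) library captures a small part of them. Some histone genes also give longer, polyadenylated transcripts from a downstream signal, as is known in cells that leave the cycle or differentiate. ATR restrains origin firing and entry into mitosis when replication is disturbed, and histone mRNA is normally degraded when DNA synthesis stops.

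The stem-loop was looked for in the annotated transcript of each gene after the coding part, on the transcript strand, as the histone stem-loop consensus of 16 bases. It was present in 46 of the 67 transcripts and in 16 of 22460 other coding genes (0.071%). The following are those of genes that the results below turn on, 5′ to 3′ from the GENCODE M21 transcripts (GRCm38), with the stem-loop in capitals.

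Hist1h1c: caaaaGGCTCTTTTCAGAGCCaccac
Hist3h2a: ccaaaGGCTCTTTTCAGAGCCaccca
Hist1h4i: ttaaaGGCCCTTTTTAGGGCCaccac
Hist3h2ba: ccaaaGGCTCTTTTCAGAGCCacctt
Hist1h2ap: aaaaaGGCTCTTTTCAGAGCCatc
Hist1h2ao: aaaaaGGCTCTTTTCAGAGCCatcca
Hist1h3c: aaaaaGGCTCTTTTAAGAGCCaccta
Hist1h4b: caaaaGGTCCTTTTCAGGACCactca

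The capitals lie at chr13:23739512-23739527 on the + strand (*Hist1h1c*), chr11:58955172-58955187 + (*Hist3h2a*), chr13:22040966-22040981 - (*Hist1h4i*) and chr11:58949349-58949364 + (*Hist3h2ba*). They lie at chr13:21833029-21833044 - (*Hist1h2ap*), chr13:21810898-21810913 + (*Hist1h2ao*), chr13:23745047-23745062 - (*Hist1h3c*) and chr13:23757366-23757381 + (*Hist1h4b*). There were 8 distinct stem-loops among the 46 genes, and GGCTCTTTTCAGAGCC, shared by *Hist1h1c*, *Hist3h2a* and *Hist1h2ap*, was the most common with 26 genes.

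What differed between these genes was where the annotated transcript ended. In 23 genes it ended within 100 bases of the stem-loop, and none of these carried the polyadenylation hexamer AATAAA after it. In the other 23 genes with a stem-loop the transcript ran 108 to 4884 bases past it (median 752), and 14 of them carried AATAAA there. The *Hist1h1c* transcript runs 840 bases past its stem-loop, that of *Hist3h2a* 1643, that of *Hist1h4i* 330 and that of *Hist3h2ba* 169, whereas that of *Hist1h2ap* ends 3 bases after it. Of these, *Hist1h1c*, *Hist3h2a* and *Hist3h2ba* each hold 1 AATAAA past the stem-loop and *Hist1h4i* holds 0. The 21 genes without a stem-loop in the model comprised 17 whose annotation ends near the coding part and 4 that run on, each of these 4 with an AATAAA. *Hist1h2bc* is one of the 4, with 742 bases after its coding part.

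The promoters of 61 members were found in the RefSeq table (GRCm38.p6, 250 bases before to 50 after the start). Those of *Hist1h1c* and *Hist3h2a*, the genes that rose under ATRi in both multiplexes, are shown with the box CCAAT, the H1 element AAACACA and the octamer ATTTGCAT, on either strand, in capitals.

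Hist1h1c promoter (chr13:23738557-23738856, + strand): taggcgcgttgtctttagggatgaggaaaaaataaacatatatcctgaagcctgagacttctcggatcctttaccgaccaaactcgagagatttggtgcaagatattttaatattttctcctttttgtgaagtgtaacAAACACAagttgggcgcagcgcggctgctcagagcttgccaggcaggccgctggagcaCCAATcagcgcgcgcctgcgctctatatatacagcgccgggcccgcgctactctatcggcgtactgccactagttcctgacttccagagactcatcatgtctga
Hist3h2a promoter (chr11:58954435-58954734, + strand): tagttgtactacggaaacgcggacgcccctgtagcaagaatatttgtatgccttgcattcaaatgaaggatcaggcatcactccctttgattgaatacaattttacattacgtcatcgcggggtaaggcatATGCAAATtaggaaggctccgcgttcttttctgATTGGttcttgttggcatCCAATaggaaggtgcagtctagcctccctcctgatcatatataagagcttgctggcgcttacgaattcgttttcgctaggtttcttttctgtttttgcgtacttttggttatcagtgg

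CCAAT was present in 52 of the 61 promoters (85.25%) against 41.06% of all 27025 promoters in the table, in every H1, H2A, H2B and H3 promoter, but in 3 of 12 H4 promoters. TATAAA was present in 35 (57.38%) against 15.67%, although in neither of the promoters printed here. The octamer ATTTGCAT was in 7 of 17 H2A and 7 of 16 H2B promoters and in no H1, H3 or H4 promoter, against 1.97% of all. AAACACA, known as an element of H1 promoters, was in 5 of 6 H1 promoters and in 9 members in all (14.75%), against 8.22%. None of the 4 motifs contains another, and a match is only a description of the sequence.

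Levels were compared between genes as CPM per kb of exon. *Hist1h2ap*, an H2A gene on chr13:21833026-21833507 (- strand, ENSMUSG00000094777), stood highest with a mean of 52.14 CPM per kb over the 20 libraries, followed by its near-copy *Hist1h2ao* (chr13:21810465-21810944, + strand, ENSMUSG00000094248) with 17.28. *Hist1h1c*, which encodes the linker histone H1.2, was next with 11.41 (chr13:23738808-23740367, + strand, ENSMUSG00000036181). The H2B genes *Hist1h2bc* and *Hist3h2ba* had 5.88 and 4.51 CPM per kb, and the H4 gene *Hist1h4i* had 5.72. In the H3 class *Hist1h3g* led with 2.25. *Hist3h2a* (chr11:58954685-58956830, + strand, ENSMUSG00000078851) was at 0.68 CPM per kb.

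A small number of genes carried most of the reads: *Hist1h2ap* had 28.0% of the summed mean CPM of all 67, and it made 69.2% together with *Hist1h1c*, *Hist1h2ao*, *Hist1h2bc* and *Hist1h4i*. At the other end, 14 genes had under 100 reads summed over the 20 libraries. No read was counted for *Hist2h2aa1* and *Hist2h3c1*, which at the lowest library total allows up to 0.0971 CPM of reads assigned to them. Both overlap the gene *Gm20634* on the same strand. How reads on overlapping genes were counted is not given in the sources used here, so these zeros do not bound the level of the RNA. In 32 genes over 50% of the 50-base stretches of the transcript recur elsewhere in the annotated transcripts, and for *Hist1h2ap* the share was 93.07%, mostly with *Hist1h2ao*. How reads that align to several places were counted is not given in the sources used here, so the split between such copies is uncertain. The share was 8.54% for *Hist1h1c*, 28.91% for *Hist1h4i*, 30.08% for *Hist1h2bc* and 31.47% for *Hist3h2a*, which shares its stretches with *Trim17*, a gene that overlaps it on the same strand.

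**Figure D1:**
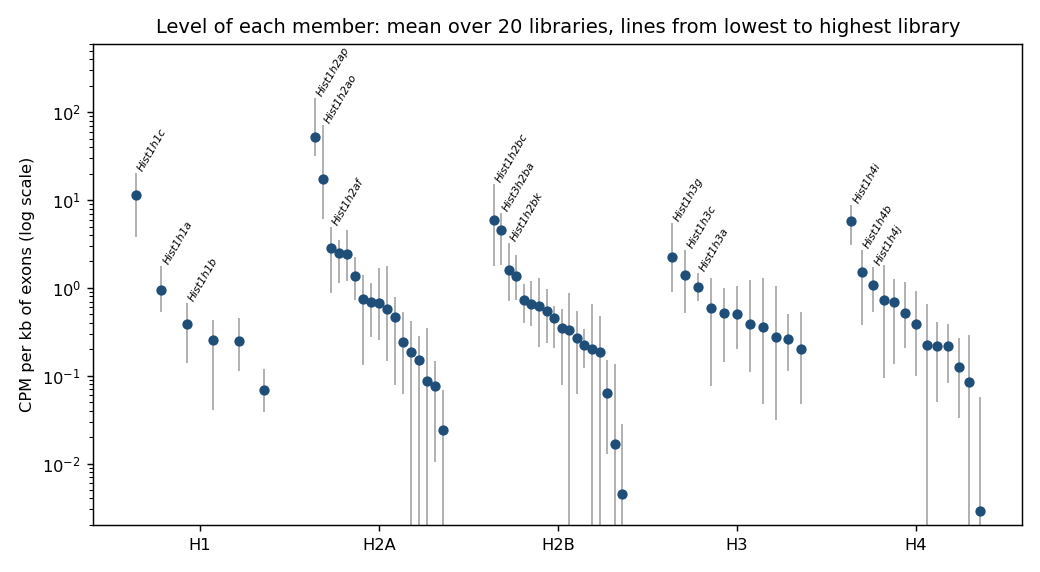
Level of each histone gene by class, as CPM per kb of exon on a log axis. Points are means over the 20 libraries and lines run from the lowest to the highest library, reaching the bottom of the axis where a library had no read. The 3 highest genes of each class are named, and *Hist1h2ap* is highest of all with 52.14.

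*Hist1h1c* rose in every library pair under ATRi. In *Ccnc* KO it measured 7.33, 10.4 and 10.5 CPM under DMSO and 27.5, 29.1 and 29.8 CPM under ATRi (clones D1, G2 and H5). In *Cdk8* KO the values were 10.03, 5.97 and 7.16 CPM under DMSO and 31.8, 20.7 and 22.8 CPM under ATRi (clones B9, H4 and C8). In WT it measured 12.1 and 12.02 CPM under DMSO and 24.4 under ATRi in the *Ccnc* multiplex, and 12.2 and 12.6 against 23.3 in the other. No ATRi library overlapped a DMSO library of any genotype. The ATRi effect beside genotype was 1.42 ± 0.12 (SE) on the log2 scale in the *Ccnc* multiplex (adjusted *P* = 3.61e-05, edgeR quasi-likelihood test) and 1.46 ± 0.20 in the *Cdk8* multiplex (adjusted *P* = 0.038). WT libraries are common to both.

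*Hist3h2a*, an H2A gene of the Hist3 cluster, moved in the same direction at a lower level. It was at 0.682, 0.648 and 0.600 CPM under DMSO in *Ccnc* KO and at 2.02, 2.09 and 2.05 under ATRi. The *Cdk8* KO clones had 0.741, 0.835 and 0.637 CPM under DMSO and 1.93, 1.81 and 2.09 under ATRi. In WT, 1.21 and 0.899 CPM stood against 2.42 in one multiplex and 1.36 and 1.16 against 2.44 in the other. ATRi libraries again lay above every DMSO library. The effect was 1.503 ± 0.17 (adjusted *P* = 6.91e-04) in the *Ccnc* and 1.24 ± 0.16 (adjusted *P* = 0.0355) in the *Cdk8* multiplex. In the latter multiplex neither *Hist1h1c* nor *Hist3h2a* passed once clone B9, clone C8 or either WT replicate was left out, with *Hist1h1c* then at 1.40 to 1.70 (adjusted *P* = 0.0603 to 0.375).

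*Hist1h2bc*, the H2B gene with the most reads, had 2.94, 3.54 and 3.80 CPM under DMSO and 6.72, 7.06 and 7.97 under ATRi in *Ccnc* KO. In *Cdk8* KO it had 3.21, 2.03 and 2.29 CPM under DMSO and 8.96, 5.89 and 7.30 under ATRi. WT showed 4.13 and 5.91 against 9.51 CPM, and 4.15 and 6.23 against 10.1. Within each genotype the groups did not overlap. Its effect was 1.02 ± 0.12 in the *Ccnc* multiplex (adjusted *P* = 9.35e-04) and 1.36 ± 0.21 in the *Cdk8* multiplex (adjusted *P* = 0.0508), where it passed with clone as a block (adjusted *P* = 7.68e-07).

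The H4 gene *Hist1h4i* had 2.23, 3.94 and 3.72 CPM under DMSO and 5.76, 5.34 and 6.38 under ATRi in *Ccnc* KO. In *Cdk8* KO it had 3.65, 2.58 and 2.42 against 4.92, 4.89 and 4.62 CPM. The groups did not overlap in either knockout. The effect was 0.72 ± 0.15 in the *Ccnc* multiplex (adjusted *P* = 0.0358), and it did not pass without clone G2 (adjusted *P* = 0.113), clone H5 (0.118) or WT replicate 1 (0.151), or with WT replicate 2 under ATRi included (0.167). In the *Cdk8* multiplex it was 0.63 ± 0.15 (adjusted *P* = 0.158), or 0.68 with clone as a block (adjusted *P* = 0.00153).

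The most abundant pair differed less between treatments. *Hist1h2ap* was at 16.1, 15.5 and 19.2 CPM under DMSO and at 17.6, 23.6 and 23.5 under ATRi in *Ccnc* KO, and at 19.5, 19.5 and 15.4 against 24.3, 22.1 and 17.4 in *Cdk8* KO. It was higher in all 6 clones, while the groups overlapped in each knockout. Its effect of 0.31 ± 0.10 (*Ccnc* multiplex, adjusted *P* = 0.147) and 0.24 ± 0.12 (*Cdk8* multiplex, adjusted *P* = 0.497) passed only with clone as a block (0.0494 and 0.0064). *Hist1h2ao* had 4.83, 4.67 and 4.48 CPM under DMSO and 5.17, 5.81 and 6.99 under ATRi in *Ccnc* KO, and 4.18, 5.48 and 2.90 against 6.20, 6.04 and 5.67 in *Cdk8* KO.

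**Figure D2:**
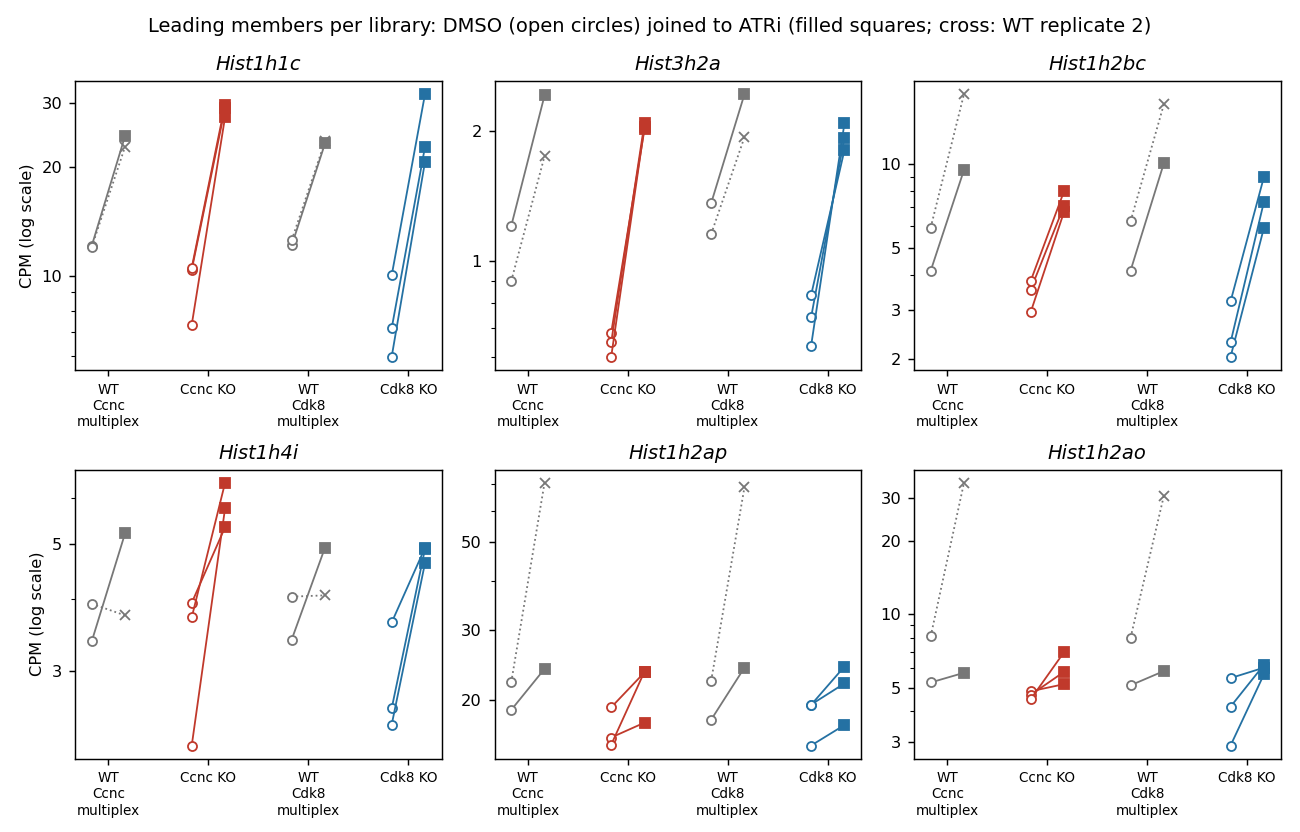
CPM of 6 histone genes per library on log axes, DMSO (open circles) joined to ATRi (filled squares) within each clone or WT replicate. WT replicate 2 under ATRi is drawn as a cross. *Hist1h1c*, *Hist3h2a* and *Hist1h2bc* are higher under ATRi in every pair, whereas the highest *Hist1h2ap* and *Hist1h2ao* values are those of WT replicate 2.

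Over all classes, 4 of the 52 histone genes tested in the *Ccnc* multiplex were higher under ATRi and 0 lower, while 0.366% of all 18577 genes tested were higher. With clone as a block it was 8 genes, against 0.964% of all, the further 4 being *Hist1h2af*, *Hist1h2ap*, *Hist1h2bh* and *Hist3h2ba* (*Hist1h2bh* is named from this count only). In the *Cdk8* multiplex 2 of 53 were higher, against 0.0374% of 18721, and 12 with clone as a block, against 4.87%. The median of the 52 was 0.31 on the log2 scale with 42 above 0, beside a median of -0.01 over all genes; in the *Cdk8* multiplex it was 0.30 with 43 of 53 above 0. The genes not tested, 15 and 14 of the 67, had too few reads to pass the filter.

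The clones alone, which share no library between the knockouts, were tested next. In *Ccnc* KO, 3 of 34 histone genes were higher, against 0.0358% of all genes: *Hist1h1c* (1.61 ± 0.13, adjusted *P* = 8.28e-04), *Hist3h2a* (1.68 ± 0.21, 0.0149) and *Hist1h2bc* (1.07 ± 0.14, 0.0163). Only *Hist1h1c* passed when any 1 clone was left out, *Hist3h2a* then standing at 1.63 to 1.73 (adjusted *P* = 0.0987 to 0.222). With clone as a block *Hist3h2ba* (adjusted *P* = 0.0285) and *Hist1h4i* (0.0351) joined them, making 5, against 0.37% of all genes.

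In *Cdk8* KO, 0 of 35 passed, as did 0% of all 17162 genes, although 8 were higher at an unadjusted *P* under 0.05 (2.41% of all genes) and DESeq2 called 3 (0.128%). *Hist1h1c* was at 1.70 ± 0.24, *Hist1h2bc* at 1.55 ± 0.23 and *Hist3h2a* at 1.39 ± 0.19 there, each with an adjusted *P* of 0.386. The clones differed in level between them, and with clone as a block 8 passed, against 2.85% of all genes, *Hist1h1c* with an adjusted *P* of 2.37e-08, *Hist1h2bc* with 4.57e-06 and *Hist3h2a* with 0.00169. Of the 34 genes tested in *Ccnc* KO, 28 passed the filter on counts in all DMSO libraries, 29 in all ATRi libraries, 3 through ATRi libraries only and 2 through DMSO libraries only. The *Cdk8* KO numbers were 30, 29, 2 and 3 of 35.

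ATRi and DMSO libraries did not overlap, with ATRi higher, in 10 of the 34 genes in *Ccnc* KO (8.88% of all genes) and in 10 of the 35 in *Cdk8* KO (5.73%). *Hist1h1c*, *Hist1h1e*, *Hist1h2bc*, *Hist3h2a*, *Hist1h4i*, *Hist1h2ao* and *Hist1h2af* were in both sets. The opposite order was seen for *Hist1h2ag* in *Ccnc* KO (9.92% of all genes) and *Hist1h2ab* in *Cdk8* KO (7.02%). Among 36 genes with 10 or more reads in each of the 6 clone pairs, 13 were higher under ATRi in 6 of 6 clones, 9 in 5, 3 in 4, 8 in 3 and 1 each in 2, 1 and 0 clones. The last of these was *Hist1h2ag*, which had 1.13, 1.03 and 1.08 CPM under DMSO and 0.787, 0.999 and 0.932 under ATRi in *Ccnc* KO (-0.24 ± 0.22, adjusted *P* = 0.678). *Hist1h2af*, an H2A gene, had 0.356, 0.351 and 0.780 CPM under DMSO and 1.15, 1.11 and 1.30 under ATRi in *Ccnc* KO, and the effect of 1.21 ± 0.32 did not pass there (adjusted *P* = 0.193).

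Summed over all 67 genes, *Ccnc* KO clones went from 51.3, 58.9 and 61.4 CPM to 90.7, 98.5 and 103 CPM, that is 1.77, 1.67 and 1.68 times. *Cdk8* KO clones went from 62.5, 52.6 and 49.5 to 106, 83.5 and 82.4 CPM (1.70, 1.59 and 1.66 times). WT replicate 1 went from 71.6 to 106 CPM in one multiplex and from 69.5 to 105 in the other. WT replicate 2, left out of the tests under ATRi, rose more, from 85.32 to 187.8 CPM and from 89.01 to 181.8 CPM. Over the 6 clones the median log2 ratio was 0.74, 0.51 without *Hist1h1c* and 0.50 without the 4 genes of highest count, both chosen after the data were seen. In bulk RNA a change in the number of cells of a kind, such as those in S phase, and a change per cell cannot be told apart.

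By class, the H1 sum under ATRi was 2.52 to 3.30 times that under DMSO in the 6 clones, and *Hist1h1c* made up most of it, 27.5 of 30.5 CPM in clone D1 under ATRi. Without it the ratio was 1.06 to 1.89. *Hist1h1a* and *Hist1h1b*, also linker histone genes, had 0.391 to 0.837 and 0.104 to 0.386 CPM under DMSO in the clones and 0.484 to 1.32 and 0.140 to 0.436 under ATRi, so they overlapped. *Hist1h1d* overlapped too, though it was higher in 5 of 6 clones. *Hist1h1e* did not overlap, with 0.078 to 0.432 CPM under DMSO and 0.484 to 0.813 under ATRi in the clones. It had 3 to 35 reads per library there and overlaps *Hist1h2be* on the same strand. The ratio of the class sums was 1.61 to 1.89 for H2B, 1.21 to 1.86 for H4, 1.16 to 1.52 for H2A and 1.01 to 1.84 for H3. The leading H3 gene *Hist1h3g* was at 0.475, 1.03 and 0.600 CPM under DMSO and 1.69, 0.720 and 1.19 under ATRi in *Ccnc* KO, going down in clone G2.

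**Figure D3:**
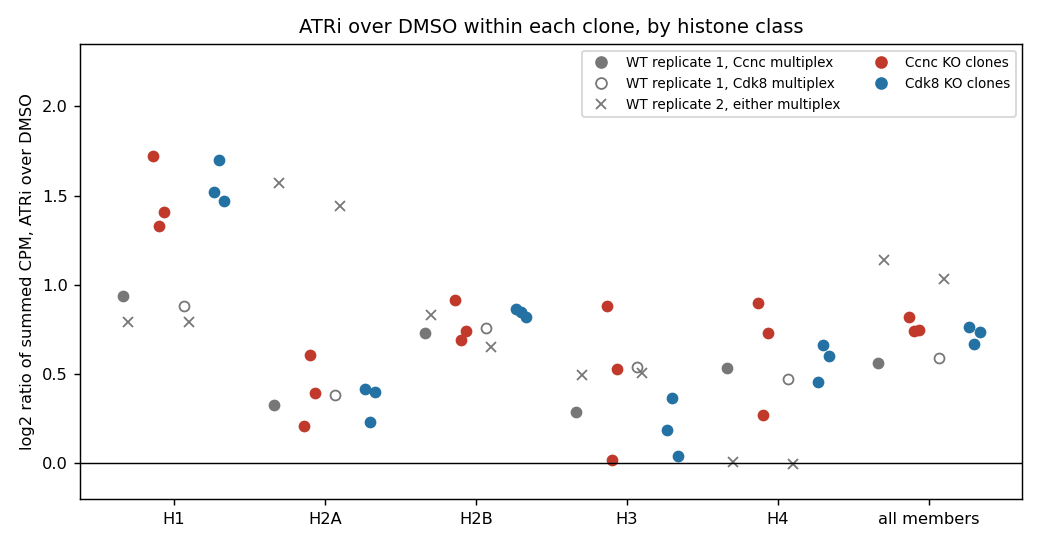
Log2 ratio of summed CPM, ATRi over DMSO, by histone class and over all 67 genes. Each point is a clone or WT replicate, with crosses for WT replicate 2. The H1 ratios of all 6 knockout clones lie above those of WT, and the H2A ratio is highest in WT replicate 2.

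The genes were then grouped by where their annotated transcript ends, which used no count. The summed CPM under ATRi was 2.06 to 2.64 times that under DMSO for the 23 genes whose transcript runs past the stem-loop, and 1.10 to 1.37 times for the 23 whose transcript ends at it. Without *Hist1h1c* the first ratio was 1.49 to 1.86. Without the 4 genes of highest count, which include *Hist1h2ap* and *Hist1h2ao*, the second was 0.981 to 1.36. These 2 groups held 40.6% and 45.0% of the histone reads. In *Ccnc* KO all 15 tested genes of the first group were above 0, with a median of 0.61 and 2 that passed (4 with clone as a block). The 12 tested in the second had a median of 0.18, 9 above 0 and 0 that passed. In *Cdk8* KO the medians were 0.60 (15 of 15 above 0) and -0.01 (6 of 13 above 0), and 4 and 2 genes passed with clone as a block. In each knockout some genes of the first group passed the filter on counts through ATRi libraries only. Some of the second group passed it through DMSO libraries only. The medians and the counts above 0 of the tested genes are thus partly set by the filter. The 4 genes without a stem-loop in a long model, among them *Hist1h2bc*, had a ratio of 1.74 to 2.66, and the 17 whose model ends near the coding part one of 1.20 to 1.63. Without the 4 genes of highest count, which include *Hist1h2bc*, the former ratio was 1.08 to 2.18. The difference between these groups was not tested, since genes are not replicates of a treatment.

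**Figure D4:**
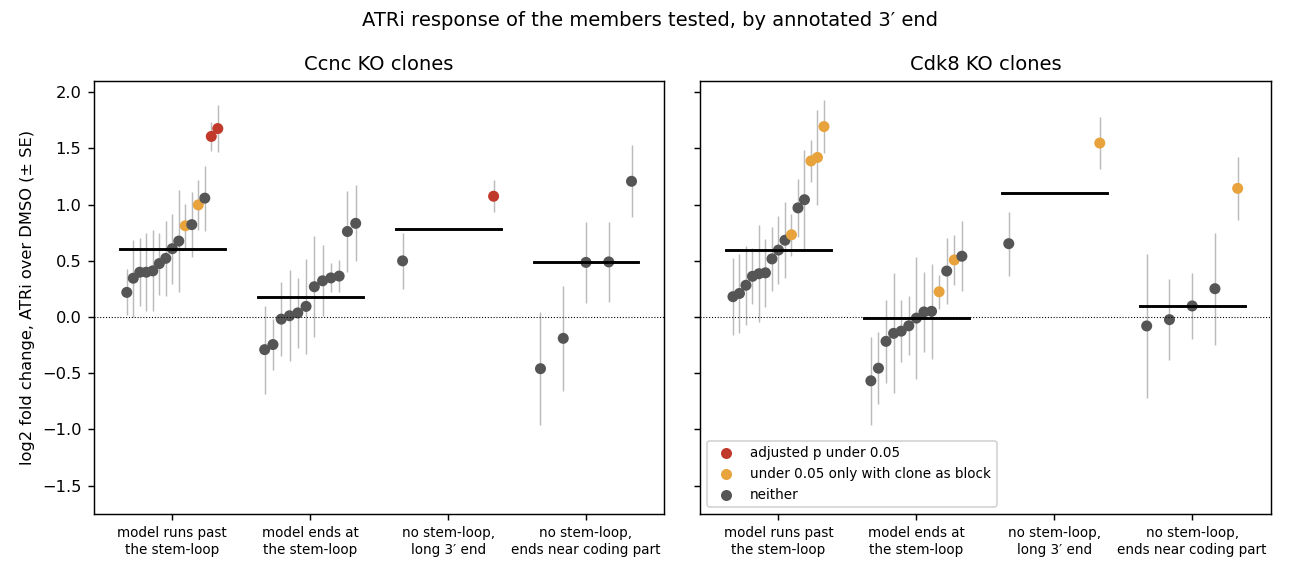
Log2 fold change with its SE, ATRi over DMSO, of each histone gene tested in *Ccnc* KO (left) and *Cdk8* KO clones (right), by annotated 3′ end. Horizontal lines are medians, at 0.61 and 0.60 where the transcript runs past the stem-loop and at 0.18 and -0.01 where it ends there. Red marks an adjusted *P* under 0.05 and orange one that passes only with clone as a block.

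Other RNAs known to lack a poly(A) tail (16 genes found) were summed to follow how much of such RNA each library held. Of these 7, among them 7SK RNA, were at 0 in all libraries, and *Rpph1* (RNase P RNA), *Scarna9* and *Terc* made up 84.1% of the sum. They came to 1.75 to 2.30 CPM under DMSO and 2.81 to 3.28 under ATRi in *Ccnc* KO and did not overlap there. In the WT libraries of that multiplex they overlapped, with 3.10 and 4.29 CPM under DMSO and 3.69 and 4.11 under ATRi (replicates 1 and 2). In *Cdk8* KO they were at 1.75 to 3.41 and 2.01 to 3.01 CPM and overlapped. From this list 3 to 6 genes were tested in each comparison and 0 passed by edgeR without a block, while *Terc*, the telomerase RNA, was higher in the *Cdk8* multiplex with clone as a block (adjusted *P* = 0.0272), as were 4.87% of all genes. Their part in the histone result was not tested.

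WT replicate 2 under ATRi had an order of histone genes of its own. *Hist1h2ap* measured 70.4 CPM in this library and 68.7 CPM when it was sequenced again, against 22.2 and 22.4 CPM in WT replicate 2 under DMSO. *Hist1h2ao* was at 34.6 and 30.7 CPM against 8.11 and 8.03, and *Hist1h2bc* at 17.8 and 16.4 CPM. These lay above all other libraries. *Hist1h1c*, at 22.8 and 23.6 CPM, lay among the other ATRi libraries, and *Hist3h2a*, at 1.75 and 1.94, at their lower end. The sum of the genes whose transcript ends at the stem-loop was 2.81 and 2.62 times that under DMSO in this replicate, while the H4 sum was 1.01 and 0.995 times. Without the 4 genes of highest count, among them *Hist1h2ap* and *Hist1h2ao*, the sum of those ending at the stem-loop did not rise. It went from 10.76 to 10.3 CPM and from 11.22 to 9.69 CPM. Its sum of other RNAs without a tail was 4.11 and 3.28 CPM, within the range of the other WT libraries.

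Sequencing the same library in both multiplexes gave the precision of single values for the genes with most reads. Over 25 pairs of a gene and a WT library with 200 or more reads, the absolute log2 difference between multiplexes had a median of 0.06 and reached 0.39. Only 6 or 7 of the 67 genes in a library had that many reads. Below this bound differences could be larger. *Hist1h3d* differed by 0.963 in WT replicate 2 under DMSO. *Hist1h2bk* differed by -0.453 in that library and by 0.468 in WT replicate 1 under ATRi. For *Hist1h1c* it lay between -0.07 and 0.06.

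Several histone genes were lower in *Ccnc* KO clones than in WT. Beside treatment, 7 of 52 genes were lower and 0 higher, against 5.28% of all genes that were lower, and the median was -0.53 with 2 of 52 above 0. Those were *Hist1h4b* (-1.21 ± 0.29, adjusted *P* = 0.0138), *Hist1h3c* (-1.08 ± 0.25, 0.0103), *Hist1h2bj* (-1.07 ± 0.24, 0.00932), *Hist3h2ba* (-0.79 ± 0.19, 0.0158), *Hist1h2bk* (-0.78 ± 0.24, 0.0463), *Hist1h2ag* (-0.58 ± 0.17, 0.0427) and *Hist1h2bc* (-0.47 ± 0.13, 0.0268). The first 3 passed the fold limit of 2 as well. *Hist1h4b* had 0.861 and 0.950 CPM in WT and 0.148, 0.567 and 0.480 in *Ccnc* KO under DMSO, and 1.08 against 0.421, 0.534 and 0.349 under ATRi. *Hist1h3c* had 1.33 and 1.33 CPM against 0.326, 0.486 and 0.720, and 1.58 against 0.731, 1.25 and 0.815. Knockout lay below the WT libraries tested in both treatments for each, although not below WT replicate 2 under ATRi, which had 0.528 CPM of *Hist1h4b* and 0.417 of *Hist1h3c*. *Hist1h1c* did not differ beyond its error (-0.11 ± 0.13, adjusted *P* = 0.631), and turned to 0.01 without clone D1.

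These calls depended on the libraries. Without WT replicate 1, 0 of the 7 passed, and without clone G2 or WT replicate 2 it was 3. From DMSO libraries alone it was 1, *Hist3h2ba*, with 2.95 and 3.34 CPM in WT and 1.13, 1.19 and 1.94 in *Ccnc* KO. With the clone as a random effect, 6 passed (4.61% of all genes were then lower), without *Hist1h2ag* (adjusted *P* = 0.0689).

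In *Cdk8* KO, 2 of 53 genes were lower and 0 higher, against 2.03% of all genes that were lower. *Hist1h3d* had 0.516 and 0.851 CPM in WT and 0.288, 0.313 and 0.255 in *Cdk8* KO under DMSO, and 1.08 against 0.643, 0.507 and 0.544 under ATRi (-1.09 ± 0.23, adjusted *P* = 0.0305). *Hist1h2bk*, an H2B gene also lower in *Ccnc* KO against the same WT libraries, had 0.722 and 0.882 CPM against 0.659, 0.339 and 0.414, and 1.56 against 0.623, 0.617 and 0.665 (-0.98 ± 0.24, adjusted *P* = 0.0482). The median of the 53 was -0.68 with 4 above 0, beside 0.01 for all genes. Neither gene passed with the clone as a random effect (adjusted *P* = 0.127 and 0.178, with 0.668% of all genes lower), without clone C8 or either WT replicate, or from DMSO libraries alone (0.291 and 0.491). Without clone B9, on the other hand, 8 genes were lower, a count not set against the share of all genes. *Hist1h1c* was at -0.38 ± 0.21 (adjusted *P* = 0.34) and *Hist3h2a* at -0.58 ± 0.17 (0.083).

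**Figure D5:**
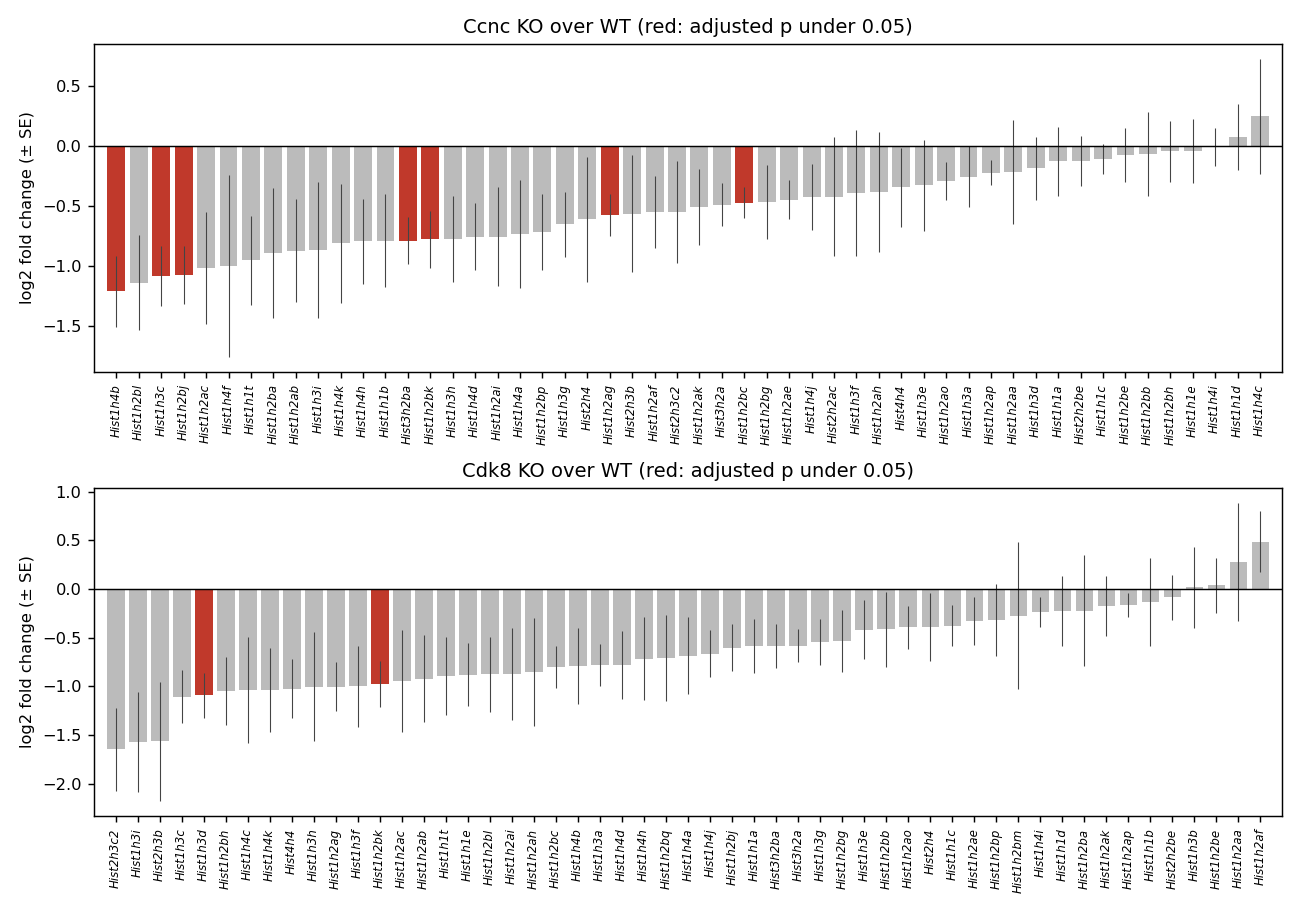
Log2 fold change of knockout over WT, beside treatment, with its SE, for the 52 histone genes tested in the *Ccnc* multiplex (above) and the 53 in the *Cdk8* multiplex (below). Red bars have an adjusted *P* under 0.05 (7 and 2 genes). Most bars lie below 0, with 2 and 4 exceptions.

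Whether the response to ATRi differed by genotype was tested with the interaction, which rests on 1 WT library under ATRi. The test called 0 of 52 genes in *Ccnc* KO and 0 of 53 in *Cdk8* KO, as for 0% of all genes in each, and DESeq2 called 0 too. At an unadjusted *P* under 0.05 there were 2 genes with a larger rise in *Ccnc* KO (1.1% of all genes) and 1 with a smaller one in *Cdk8* KO (0.694%). For *Hist1h1c* the difference was 0.58 ± 0.22 in *Ccnc* KO and 0.78 ± 0.38 in *Cdk8* KO, and for *Hist3h2a* 0.47 ± 0.36 and 0.44 ± 0.33, all with an adjusted *P* of 1. The H1 sum under ATRi was 1.92 and 1.84 times that under DMSO in WT replicate 1 and 2.52 to 3.30 times in the clones.

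The difference in response between the knockouts was tested last. Of 42 histone genes tested, 0 passed and 0 had an unadjusted *P* under 0.05 by edgeR (0% and 2.05% of all 17630 genes), and DESeq2 called 0. *Ccnc* KO minus *Cdk8* KO was -0.09 ± 0.29 for *Hist1h1c*, 0.28 ± 0.25 for *Hist3h2a*, -0.48 ± 0.28 for *Hist1h2bc* and 0.08 ± 0.29 for *Hist1h4i*. Knockout and multiplex are the same split here, so each response was taken within its own multiplex.

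Genes that act on histone mRNA and histones were read beside these. Against WT, 1303 of all 18577 genes tested were higher and 981 lower in *Ccnc* KO. In *Cdk8* KO, 426 of 18721 were higher and 380 lower. Of 18 genes for the 3′ end processing and turnover of histone mRNA, 0 passed under ATRi in either multiplex (medians 0.05 and 0.06), and *Slbp*, the stem-loop binding protein, was at 0.07 ± 0.06 in the *Ccnc* multiplex. With clone as a block 3 rose and 1 fell in the *Cdk8* multiplex, where 4.87% of all genes rose and 1196 of 18721 fell. In *Ccnc* KO *Slbp* (0.27 ± 0.07) and *Lsm10* (0.26 ± 0.08) were higher and *Lsm11* lower (-0.31 ± 0.08), the latter pair being subunits of the U7 particle that cuts histone pre-mRNA. In *Cdk8* KO *Cstf2*, a cleavage stimulation factor, was higher (0.22 ± 0.04). With the clone as a random effect *Lsm10* and *Cstf2* did not pass (adjusted *P* = 0.0594 and 0.0719). Of 20 histone chaperones 0 passed under ATRi, or 3 higher with clone as a block in the *Cdk8* multiplex (4.87% of all genes). *Tonsl* was higher (0.22 ± 0.06) and *Ubn1* lower (-0.27 ± 0.06) in *Ccnc* KO.

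Histone variants made outside S phase too were also measured. Their mRNAs are polyadenylated as a rule, and *H2afx* is known to give a stem-loop form as well. Of 11 such genes, 5 were lower in each knockout and 0 higher: *H2afx*, *H2afy*, *H2afy2*, *H1f0* and *H1fx*, from -0.24 to -0.69 in *Ccnc* KO and from -0.27 to -0.68 in *Cdk8* KO, against the same WT libraries. Of all genes tested, 5.28% were lower in *Ccnc* KO and 2.03% in *Cdk8* KO. With the clone as a random effect it was 3 of the 11 in *Cdk8* KO, without *H2afy* and *H2afy2*, against 0.668% of all genes. *H1f0*, the replacement linker histone, rose under ATRi in the *Ccnc* multiplex (0.51 ± 0.08), the only one of the 11 to pass there (0.366% of all genes were higher). With clone as a block it was 2 there (0.964% of all genes) and 6 in the *Cdk8* multiplex (4.87%), where 0 had passed.

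Genes of the cell cycle were read in the same way. Of 26 G1/S and S phase genes 0 passed under ATRi in either multiplex (medians 0.06 and 0.08). With clone as a block 10 were higher in the *Cdk8* multiplex, against 4.87% of all genes. In *Ccnc* KO, 10 were higher (1303 of all 18577 genes were), *Rrm2* most (0.46 ± 0.05). *Ccne2* and *Rrm2* were among those higher in *Cdk8* KO (426 of all 18721 genes). With the clone as a random effect it was 9 in *Ccnc* KO (1028 of all genes) and *Rrm2* alone in *Cdk8* KO (112 of all genes). Of 18 G2/M genes, *Mki67*, *Cenpf* and *Cdc20* rose under ATRi in the *Ccnc* multiplex (0.43, 0.32 and 0.24), where 0.366% of all genes were higher. In the *Cdk8* multiplex 0 passed, or 10 higher and 1 lower with clone as a block. Of all genes 4.87% were then higher and 1196 of 18721 lower.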

How the data were processed

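RNA-seq counts were analysed for 2 WT biological replicates and 3 clones of each knockout, under DMSO or ATRi. The authors trimmed reads with Trimmomatic 0.38, aligned them to GRCm38.p6 with HISAT2 2.1.0 and counted them per gene and strand with featureCounts 2.0.1, and deposited raw counts per lane and library. Their counting skipped reads marked as duplicates, and no step that marks them is named. How multiply aligned reads were counted is not given in the sources used here, which bears on near-identical histone genes. Tables of regularised log values, also deposited, were not used.

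Deposited counts of both lanes were added up per library, and genes were tested within each multiplex by the edgeR 4.0.16 quasi-likelihood test in R 4.3.3, with TMM normalization, the filterByExpr filter by genotype and treatment, and Benjamini-Hochberg adjustment over all genes tested (threshold 0.05). CPM used TMM library sizes. Fold changes were fitted with the edgeR default prior count. Log2 CPM with 2 prior counts served only for the correlations given below and for a GC and length correction. The ATRi effect was fitted beside genotype and the genotype effect beside treatment. *P*-values of fits without a block measure the spread between libraries. In these fits of genotype or treatment the DMSO and ATRi libraries of 1 clone count as independent. DMSO and ATRi libraries of 1 clone come from the same cell line and are thus paired. Their deviations from the group means correlated at 0.21, 0.03 and 0.22 for the clones of *Ccnc* KO, at 0.61, 0.68 and 0.21 for those of *Cdk8* KO and at 0.23 and 0.2 for the WT replicates. Fits with clone as a block, or for genotype as a random effect (limma voom), are given where they change a count the text gives.

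Histone genes named were the 2 markers *Hist1h1c* and *Hist3h2a*, the 3 of highest CPM per kb in each class, and those that passed in both multiplexes or in a genotype test. Some others are named where a count or an order of groups includes them. Members, lists and tests were chosen with earlier results of these data known. DESeq2 1.42.0 and limma 3.58.1 served as alternatives, with other filters, scalings and left-out replicates. Coordinates and transcripts came from GENCODE M21, promoters from RefSeq. The tests of ATRi within *Ccnc* KO clones and of *Ccnc* KO against WT were tried on simulated counts with known changes. The other tests, and the fits with a block, were not. The values of 1 gene of the G1/S and S phase list are not reported here.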

Additional observations from a re-analysis of the deposited data

How the results depend on the processing

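The histone genes called under each alternative are given against those of the reported fit. DESeq2 and the replicate block also called a larger share of all genes under ATRi, given in brackets. For the other alternatives the share of all genes is not given, so those counts are not set against all genes. ATRi beside genotype in the *Ccnc* multiplex (4) gave 7 with DESeq2 (1.42% of all genes) and 8 with the replicate block (0.964%). It gave 9 with a filter of at least 1 count, 9 with the block and a GC and length correction, and 3 to 6 without 1 replicate. Within *Ccnc* KO clones (3) DESeq2 gave 5 (0.739%) and the replicate block 5 (0.37%). The low filter gave 6 there, the block with the correction 5, and leaving out any 1 clone 1. In the *Cdk8* multiplex (2) DESeq2 gave 5 (0.844%), the replicate block 12 (4.87%) and the block with the correction 13, and leaving out 1 replicate 0 to 3. Within *Cdk8* KO clones (0) DESeq2 gave 3 (0.128%) and the low filter 1. The replicate block gave 8 there (2.85%), also with the correction, and leaving out a clone 0.

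Lower genes in *Ccnc* KO (7) were 1 from DMSO libraries alone and 0 to 5 without 1 replicate. *Hist1h1c*, not called there, ranged from -0.34 and changed sign without clone D1 (0.0072). Lower genes in *Cdk8* KO (2) were 5 with DESeq2 (4.54% of all genes lower) and 0 with the replicate block as a random effect (0.668%). They were 6 with the low filter, 5 with all WT libraries, 0 from DMSO libraries alone and 0 to 8 without 1 replicate. The calls of the interaction and of the difference between knockouts were 0 under every alternative run, with or without the block, and the interaction could not be fitted without WT replicate 1. The cause of these changes was not tested. The median log2 ratio of summed CPM over the 6 clones, 0.74, was 0.50 without the 4 genes of highest count and 0.51 without *Hist1h1c*, alternatives added after the data were seen. With RLE size factors in edgeR all 39 fold changes of named genes kept their direction and their side of the threshold. Depth limits what could be tested, since 14 of the 67 genes had under 100 reads summed over the 20 libraries.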
